A study of Mus musculus with 4 samples.

Results

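The genes that encode the proteins of the cytosolic ribosome were followed in cultured rib chondrocytes labelled WT and Senp6-Mut. Members were taken by symbol, as Rpl or Rps followed by a number and at most 1 letter, together with Rplp0, Rplp1, Rplp2 and Rpsa, leaving out the S6 kinases and processed copies. The rule gave 76 genes, 46 of the large and 30 of the small subunit, of 18298 genes with a read in any sample. All 76 had at least 10 reads in at least 2 samples and so were among the 14123 genes tested. The cells were primary chondrocytes of passage 1 (P1) grown from rib cartilage of E18.5 embryos on the C57BL/6 background. The 2 WT samples carried Senp6f/f without Cre, and the 2 Senp6-Mut samples carried Dermo1-Cre;Senp6f/f. Both groups therefore share the floxed allele, and Cre expression itself was not present in the WT group. Dermo1-Cre is driven from the Twist2 locus in mesenchymal progenitors of bone and cartilage and removes Senp6, the gene of a protease that trims SUMO chains from proteins. Nothing in the labels says whether the samples of a group came from separate embryos, litters or cultures. The paper's methods describe the replicates of its in vitro work as biological. Xist was read 3 times in Senp6-Mut replicate 1 and 11354 times in replicate 2, so these samples were not repeats of the same material. The WT samples did not differ in this way. P-values measure only the spread between these samples, and how much of it is technical was not tested.

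The ribosome is built from ribosomal RNA and about as many proteins as there are genes in this family, in a small subunit that decodes the mRNA and a large subunit that joins amino acids. Cells make these proteins in matched amounts, in part because their mRNAs start with a terminal oligopyrimidine (TOP) tract that lets growth signals through mTOR switch their translation together. When assembly fails, a few unassembled ribosomal proteins bind Mdm2, the ubiquitin ligase of p53, and p53 is stabilised. Cartilage and marrow are among the tissues that react to the loss of 1 copy of single members, as in Diamond-Blackfan anaemia.

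The promoter table from RefSeq (GRCm38.p6) has an entry for 56 of the 76 genes, and the letters CTCTTT or CTTTCC, pieces of a pyrimidine tract that overlap in CTCTTTCC, were searched within 50 bases on each side of the annotated start. On the sense strand 29 of the 56 genes held either motif, which is 51.8%, against 9.29% of 27025 genes with an entry. On the antisense strand the shares were 1.79% and 8.73%, and on either strand 53.6% and 17.2%. The 5 windows below, each of 30 bases from 10 before to 20 after the annotated start, were chosen among the genes with a motif near the start, and 4 of them are described by role further on. Capitals mark the motif. They lie at chr7:45718061-45718090 (plus strand, Rpl18), chr16:33056472-33056501 (plus, Rpl35a), chr11:114668570-114668599 (plus, Rpl38), chr4:86857348-86857377 (minus, Rps6) and chr10:128626487-128626516 (minus, Rps26).
Rpl18: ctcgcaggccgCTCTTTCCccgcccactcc
Rpl35a: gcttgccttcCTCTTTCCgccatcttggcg
Rpl38: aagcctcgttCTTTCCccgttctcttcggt
Rps6: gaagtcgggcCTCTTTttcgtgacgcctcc
Rps26: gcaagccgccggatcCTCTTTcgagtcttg
In Rpl35a, Rpl38 and Rps6 the motif began at the annotated start itself. A match describes the letters in the window and is not a measured TOP tract.

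The counted reads that fell on the 76 genes numbered 989982 to 1251394 per sample, and the library sizes used in the fit, which are the reads on all genes times a TMM factor near 1, were 20298850 to 31042437. The level of Senp6 over the whole gene was 10.8 and 18.02 RPKM (the read count scaled to gene length and to all counted reads of the sample) in WT and 12.02 and 8.07 RPKM in Senp6-Mut, so the groups overlapped. These gene-level counts include exons outside a deleted part and do not check the deletion. Markers of the labelled cell type were present: 15 of 16 listed chondrocyte genes were in the files, and their summed level was 5290 to 5300 CPM (counts scaled to the same total in each sample) in WT and 2810 to 3410 in Senp6-Mut, with both Senp6-Mut samples below both WT samples in 15 of 15. Over these 15 genes the median log2 fold change of Senp6-Mut against WT was -1.68, a larger difference than in the sum. Col2a1, the main collagen of cartilage, was at 609 and 659 RPKM in WT and at 334 and 445 RPKM in Senp6-Mut. Muscle markers summed to 202 and 65.5 CPM in WT replicates 1 and 2 and to 362 and 394 in Senp6-Mut replicates 1 and 2, and all 12 were detected. Their median log2 fold change was 1.39, with 11 of the 12 above 0. Tendon and fibroblast markers summed to 1110 and 1500 CPM in WT and 1850 and 2090 in Senp6-Mut, although only 2 of 6 were above in both mutant samples and 1 was below. Macrophage markers were at 23.6 to 24.4 CPM in WT and 13.9 to 20.6 in Senp6-Mut, with 4 of 5 below in both mutant samples. Endothelial markers summed to 3.71 to 5.81 CPM in WT and 4.19 to 4.28 in Senp6-Mut. Osteoblast markers, mostly Col1a1, were at 23600 to 34600 CPM in WT and 15800 to 22900 in Senp6-Mut. Red blood cell markers were near 0, with at most 0.389 CPM, and Hba-a1 and Hbb-b2 had no read in 3 samples. Xist was read 11354 times in Senp6-Mut replicate 2 and at most 5 times elsewhere. In bulk RNA, a different mix of cells and a different level per cell cannot be told apart, and the part of cell mix or sex in the values below was not tested.

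Ribosomal protein mRNAs were among the abundant transcripts of these cells. The median over the 76 genes was 765 and 762 RPKM in WT replicates 1 and 2 and 648 and 709 RPKM in Senp6-Mut replicates 1 and 2. The mean RPKM over the 4 samples was above 100 for 71 genes and above 500 for 48 genes. Rplp1, an acidic protein of the stalk that recruits translation factors, had the highest level, at 2842 and 2251 RPKM in WT and 2066 and 2533 RPKM in Senp6-Mut. Next came Rpl41, at 2631, 2414, 2079 and 2560 RPKM in the same order of samples. Rps26, which sits where mRNA leaves the ribosome, had 2285, 2122, 2075 and 2007 RPKM. Rpl28 followed with 2361, 2083, 1838 and 1985 RPKM, and Rps2 with 1775, 1889, 1613 and 1922 RPKM. Among these 5 genes, the ranges of neighbours in the order overlapped. Only in Rps26 and Rpl28 were both Senp6-Mut samples below both WT samples, as they were in 19.2% of all tested genes by RPKM. Many genes of the family have near-identical copies elsewhere in the genome, so these levels also depend on how reads were placed.

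**Figure D1:**
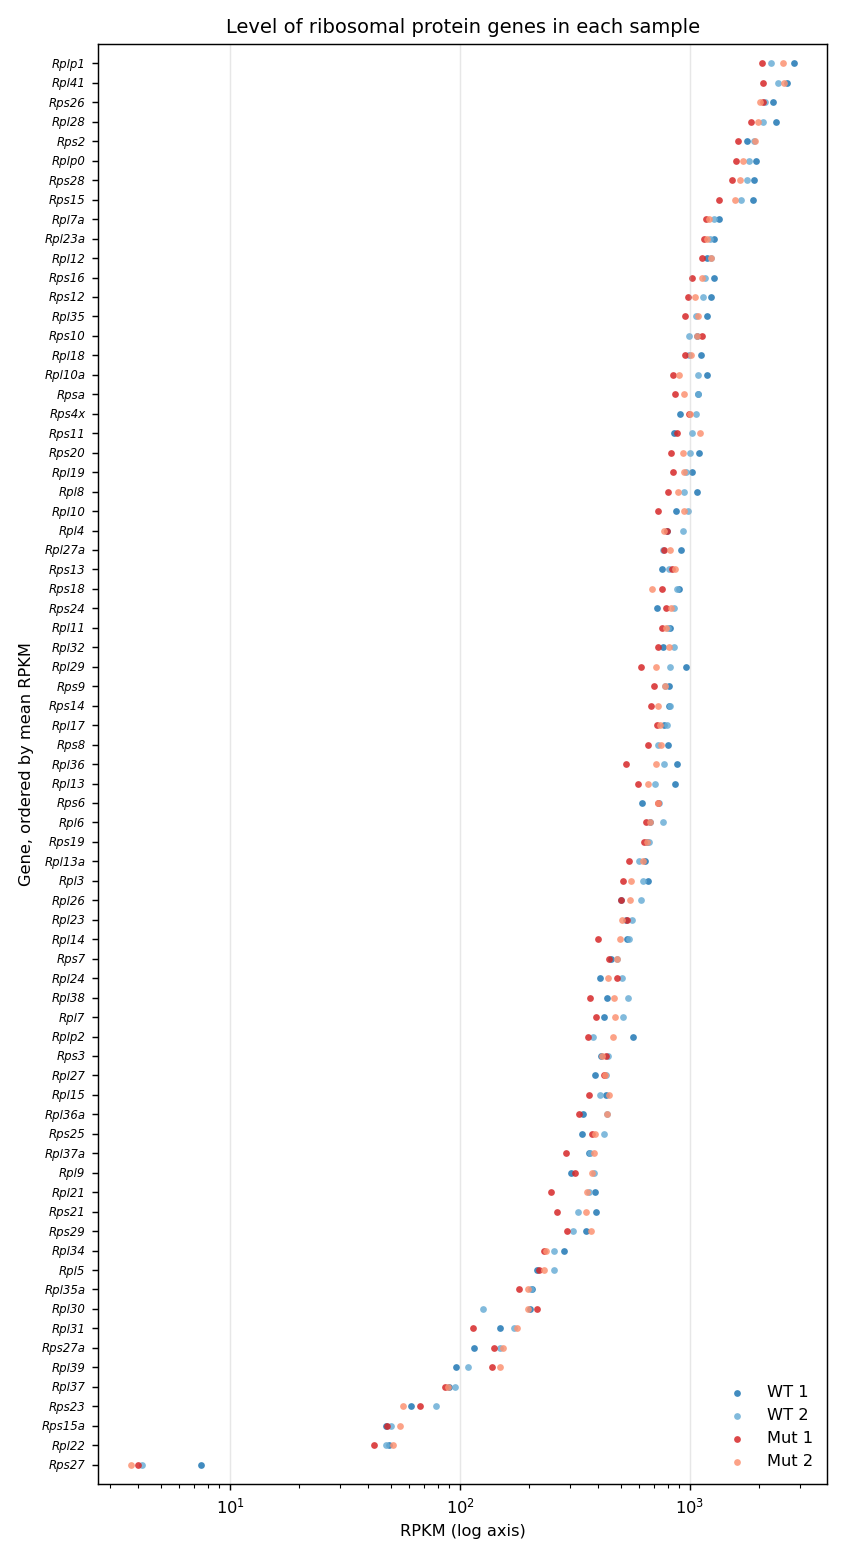
RPKM of 73 of the 76 genes (log axis) in WT 1, WT 2, Mut 1 and Mut 2, 1 point per sample, ordered by mean RPKM. Of the 76 genes, 71 have a mean above 100 RPKM, and Rps27 stands apart at 3.72 to 7.47 RPKM.

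At the low end, Rps27, a zinc-finger protein of the small subunit, was listed with 94 and 65 reads in WT and 74 and 63 reads in Senp6-Mut. That is 7.47, 4.15, 3.99 and 3.72 RPKM, and reads covered only 35.8% to 50.8% of its length, against more than 90% in every sample for 60 of the 76 genes. Rpl22, whose protein also binds small RNAs, was at 49.1, 47.7, 42.3 and 51.2 RPKM in WT replicates 1 and 2 and Senp6-Mut replicates 1 and 2. Rps15a was at 47.9 to 54.6 RPKM over a listed length of 5158 bases, the longest in the family, where the median was 705.5 bases. Of the 50-base stretches of each transcript, a median of 54.4% also occurs in the transcript of another gene, and in 43 of the 76 genes the share is above 50%. It is 93.8% for Rpl5. How reads that fit several places were assigned is not given in the sources used here, so the levels of single members, and any order between them, are uncertain.

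As a share of all reads on genes, the family took 4.71% and 4.62% in WT replicates 1 and 2, and 4.03% and 4.43% in Senp6-Mut replicates 1 and 2. The means were 4.67% ± 0.0624 (SD, n = 2) and 4.23% ± 0.280 (SD, n = 2), a ratio of 0.907. Both Senp6-Mut samples were below both WT samples, and an exact permutation test (two-sided) gave p = 0.333, the smallest value that 2 samples against 2 allow. The large subunit went from 2.84% to 2.53% on average and the small subunit from 1.83% to 1.70%. The difference of -0.435 percentage points was -0.236 without Senp6-Mut replicate 1 and -0.633 without Senp6-Mut replicate 2, so its size differed by more than 1.5 times with the mutant sample used.

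**Figure D2:**
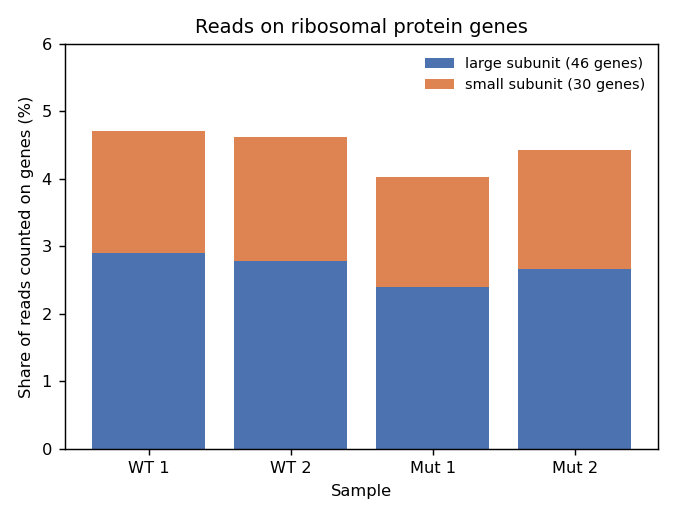
Share of the reads counted on genes (%, axis from 0) that lie on ribosomal protein genes in each of the 4 samples, stacked by subunit. The 4 totals are 4.71% and 4.62% in WT and 4.03% and 4.43% in Mut.

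Gene by gene, the transcripts of the family lay slightly lower in Senp6-Mut, and no single member passed the test. The median log2 fold change of Senp6-Mut against WT was -0.16, a change of -10.7%, against 0.01 over all genes tested. It was -0.10 without Senp6-Mut replicate 1 and -0.07 with offsets for gene length, which were chosen after seeing the data. In 67 of the 76 genes the log2 fold change was below 0, a sign that 48.6% of all tested genes had. After TMM scaling both Senp6-Mut samples were below both WT samples in 40 members, where the background over all genes was 22.8%. Both were above in 2 members, Rpl39 and Rps13, against a background of 25.4%, and in 34 the groups overlapped. On the RPKM as deposited the counts were 32 below (19.2% of all genes) and 3 above (28.3%). With p-values adjusted after Benjamini and Hochberg, edgeR's quasi-likelihood test called 0 members higher and 0 lower at 0.05, and 0% of all 14123 genes in either direction. Calls appeared when a control sample was dropped. Without WT replicate 2 edgeR called 11 members lower (10.6% of all genes) and 1 higher (9.42%), and without WT replicate 1 it called 0 lower (1.06%) and 1 higher (3.72%). Fitted with a block for replicate number, it called 0 members (0.595% of all genes higher and 0.234% lower). At an unadjusted p under 0.05 edgeR had 8 members lower, where 6.28% of all genes were, and 1 higher, where 9.29% were.

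In size, the differences between the groups were near those between replicates. The measures are unlike, because groups were compared as averages of 2 samples and replicates as single samples, which vary more. The median absolute log2 fold change between the groups was 0.17, while replicates of one member differed by a median of 0.17 in WT and 0.11 in Senp6-Mut. Standard errors ran from 0.12 to 0.37 with a median of 0.14. In 74 of the 76 genes the fold change lay between -0.5 and 0.5 on the log2 scale. WT replicate 1 held the highest level of 46 members and Senp6-Mut replicate 1 the lowest of 55. The medians of the deviation from each gene's own mean were 0.13 and 0.05 in WT and -0.15 and -0.03 in Senp6-Mut on the log2 scale.

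**Figure D3:**
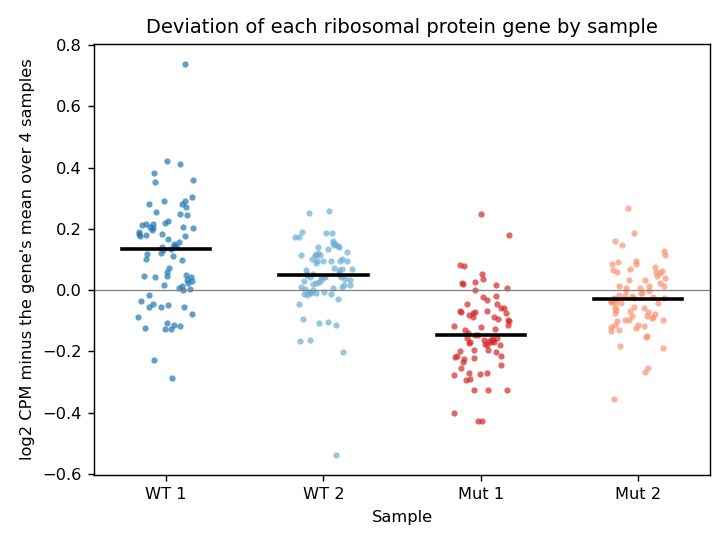
For each of the 76 genes, log2 CPM after TMM scaling minus the gene's mean over the 4 samples (vertical axis) by sample; each point is a gene and the bar is the median. The medians are 0.13, 0.05, -0.15 and -0.03 from WT 1 to Mut 2, and the points of the 4 samples overlap.

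Both subunits lay below 0, with a median log2 fold change of -0.17 in the large subunit (43 of 46 below 0) and -0.15 in the small subunit (24 of 30 below 0). The lowest value of all belonged to Rps27, at -0.63 ± 0.37 (SE), and rests on the 63 to 94 reads given above. It was -0.12 without WT replicate 1 and -1.05 without WT replicate 2, so a single control library decides its size and its place in the order. The smallest adjusted p of the family in the edgeR quasi-likelihood test (Benjamini-Hochberg) was 0.184. DESeq2 called 1 member lower and 0 higher, where it called 1.89% of all genes lower and 3.11% higher.

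Rpl29, a basic protein of the large subunit, had 962 and 821 RPKM in WT and 612 and 709 RPKM in Senp6-Mut (log2 fold change -0.48 ± 0.15, SE). Rpl36 had 879 and 772 RPKM against 530 and 708 RPKM (-0.46 ± 0.17). Rpl10a, a protein of the mobile L1 stalk, had 1183 and 1088 RPKM against 840 and 899 RPKM (-0.43 ± 0.13). These 3 genes were named for their low fold changes, so the lack of overlap between their groups adds no support. After TMM scaling both Senp6-Mut samples were below both WT samples in 40 of the 76 members and 22.8% of all genes. The lower of the mutant values was always replicate 1, which was the lowest sample in 55 of the 76 members. Rpl3, which lies close to the peptidyl transferase centre, had 656 and 627 RPKM in WT and 511 and 554 RPKM in Senp6-Mut (-0.31 ± 0.13).

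At the other end stood Rpl39, a very small protein of the exit tunnel. Its level was 95.6 and 109 RPKM in WT and 137 and 150 RPKM in Senp6-Mut, a log2 fold change of 0.45 ± 0.13 (SE), with an adjusted p of 0.185 in the edgeR quasi-likelihood test (Benjamini-Hochberg). Both Senp6-Mut samples were above both WT samples, as in 25.4% of all tested genes after TMM scaling. Rpl39 was named for its high fold change, so this lack of overlap adds no support. Of its 50-base stretches, 13.7% are shared with other genes. Rpl30 came next, with 202 and 126 RPKM in WT and 217 and 199 RPKM in Senp6-Mut (0.29 ± 0.24). Its WT samples differed by more than the groups did, and reads covered 68.4% of the gene in WT replicate 1 and at least 95.7% in the other samples. Rps27a, made as a fusion with ubiquitin, had 115 and 149 RPKM against 141 and 155 RPKM (0.12 ± 0.15). Rps6, the substrate of the S6 kinases, had 620 and 732 RPKM against 728 and 727 RPKM (0.07 ± 0.13), and Rps13 had 758 and 815 RPKM against 832 and 858 RPKM (0.06 ± 0.12). For Rps27a and Rps6 the groups overlapped.

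**Figure D4:**
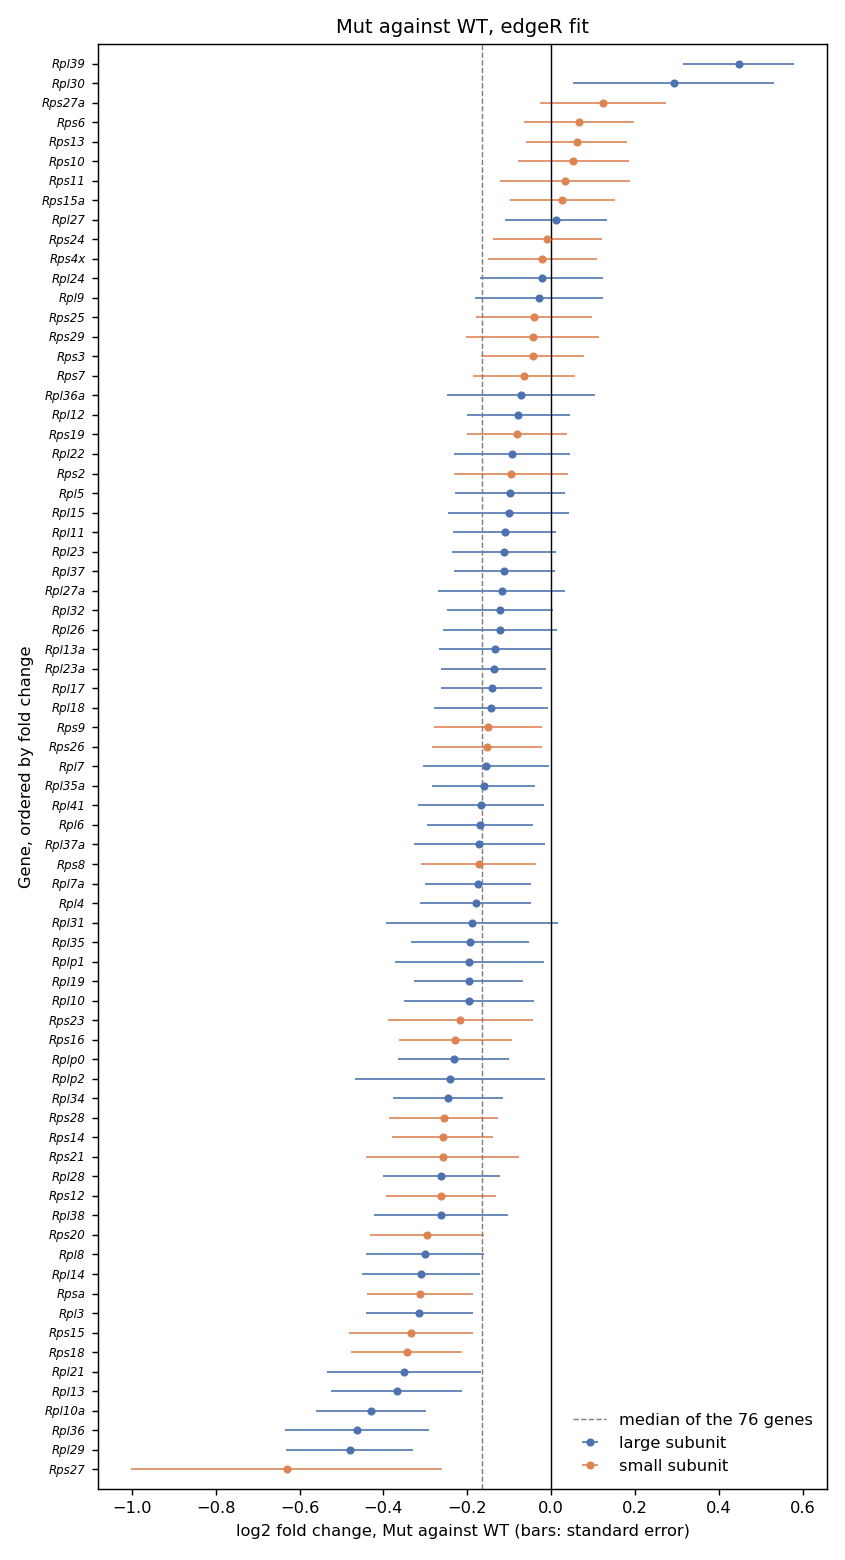
Log2 fold change of Mut against WT (horizontal axis) with its standard error (bar) for 73 of the 76 genes, coloured by subunit and ordered by value; the dashed line is the median of -0.16 over all 76. Values run from -0.63 (Rps27) to 0.45 (Rpl39), and most points lie below 0.

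The stalk proteins differed in how steady they were. Rplp0, which anchors the stalk, was at 1936 and 1800 RPKM in WT and 1584 and 1696 RPKM in Senp6-Mut (log2 fold change -0.23 ± 0.13, SE), and the groups did not overlap. By RPKM both Senp6-Mut samples were below both WT samples in 19.2% of all tested genes. The partners of Rplp0, Rplp1 (-0.19 ± 0.18) and Rplp2 (-0.24 ± 0.23), overlapped between groups. Rplp2 was at 563 and 380 RPKM in the WT samples and at 361 and 465 RPKM in the Senp6-Mut samples, and without WT replicate 1 the changes of Rplp1 and Rplp2 were 0.01 and 0.10.

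The members chosen here by role as able to bind Mdm2 had log2 fold changes no larger than their standard errors. Whether other members bind Mdm2 was not examined. Rpl5, which travels to the ribosome with the 5S RNA, had 216 and 257 RPKM in WT and 221 and 233 RPKM in Senp6-Mut (-0.10 ± 0.13). Reads covered only 52.21% to 61.15% of its length, and 93.8% of its 50-base stretches are shared, so its level is uncertain. Rpl11, the partner of Rpl5, had 819 and 799 RPKM against 755 and 788 RPKM (-0.11 ± 0.12), with no overlap between the groups. Rpl23 (-0.11 ± 0.12), Rpl26 (-0.12 ± 0.14) and Rps7 (-0.06 ± 0.12) overlapped between the groups on the RPKM scale. After TMM scaling both Senp6-Mut samples were below both WT samples for Rpl11, Rpl23 and Rps7, as in 22.8% of all tested genes. For comparison, Mdm2 itself was at 15.5 and 22.1 RPKM in WT and 30.1 and 39.6 RPKM in Senp6-Mut, and Cdkn1a, a p53 target that stops the cell cycle, at 57.7 and 84.6 against 122 and 176 RPKM. Both genes were singled out after their values were seen. Neither passed the edgeR quasi-likelihood test (Benjamini-Hochberg), with adjusted p values of 0.125 and 0.115.

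Several genes of the family are mutated in Diamond-Blackfan anaemia, and 5 of them are given here. Rps19, the gene most often mutated in that disease, had 648 and 666 RPKM against 628 and 650 RPKM (-0.08 ± 0.12). Rps24 had 722 and 853 RPKM against 785 and 825 RPKM (-0.01 ± 0.13), and Rps10 had 1074 and 992 RPKM against 1130 and 1077 RPKM (0.05 ± 0.13). Rps26 (-0.15 ± 0.13) and Rpl35a (-0.16 ± 0.12), whose start windows are printed above, were lower in both Senp6-Mut samples than in both WT samples by RPKM. Of all tested genes 19.2% were. After TMM scaling this also held for Rps19, against a background of 22.8% of all tested genes. Rpl35a ran from 180 RPKM in Senp6-Mut replicate 1 to 206 RPKM in WT replicate 1. None of these 5 genes passed the test.

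Rpl38, known from a mouse mutant with altered vertebral patterning and thus of interest in skeletal cells, had 436 and 536 RPKM in WT and 367 and 467 RPKM in Senp6-Mut. Its log2 fold change was -0.26 ± 0.16 (SE), and the groups overlapped. Of the X-linked members, Rps4x had 903 and 1060 RPKM in WT against 992 and 998 RPKM in Senp6-Mut (-0.02 ± 0.13). Rpl10 had 868 and 979 RPKM against 723 and 937 RPKM (-0.20 ± 0.16), and Rpl36a had 343 and 437 RPKM against 328 and 435 RPKM (-0.07 ± 0.18). Rpl39 is X-linked as well. Between Senp6-Mut replicate 1 and replicate 2, the sample with Xist reads, the TMM-scaled levels differed by -0.34 for Rpl10, -0.37 for Rpl36a, -0.09 for Rpl39 and 0.03 for Rps4x on the log2 scale, where the median over all members was -0.09.

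Several members have a paralogue that can stand in for them. Rps27l, a p53 target in other cells, was at 50.1 and 60.02 RPKM in WT and 56.04 and 84.2 RPKM in Senp6-Mut (log2 fold change 0.30 ± 0.21, SE) and overlapped between groups. Rpl22l1 was at 17.3, 21.3, 18.2 and 19.4 RPKM in WT replicates 1 and 2 and Senp6-Mut replicates 1 and 2 (-0.07 ± 0.20), beside -0.09 ± 0.14 for Rpl22. Rpl36al had -0.11 ± 0.12 beside -0.07 ± 0.18 for Rpl36a, and Rpl7l1 had -0.04 ± 0.15 beside -0.16 ± 0.15 for Rpl7. Rpl39l, at 1.60 and 1.24 RPKM in WT and 3.69 and 1.72 RPKM in Senp6-Mut, had a log2 fold change of 0.90 ± 0.47. It was higher in both mutant samples, mainly in replicate 1. Rpl3l and Rpl10l, known from muscle and testis, had at most 1 read in any sample. None of the 6 genes tested from the list of paralogues, which also holds Rps3a1 (described below), passed an adjusted p of 0.05 in the edgeR fit.

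Transcript length and base composition moved with these values. Among other genes the median log2 fold change was -0.07 under 500 bases, -0.10 at 500 to 1000 and -0.06 at 1000 to 1500. It was -0.01 at 1500 to 3000 bases and 0.05 from 3000 bases on. Among 189 other genes of 500 to 1500 bases with a mean RPKM of 100 or more it was -0.08. In the 55 members of that length it was -0.16. Spearman's rho between log2 fold change and length was 0.13 over the 76 members. In 31.8% of the other genes of 500 to 1000 bases both Senp6-Mut samples were below both WT samples, against 26 of 44 members of that length. With per-sample offsets for gene length, chosen after seeing the data, the median of the family was -0.07 and 57 of 76 were below 0. By GC content, the medians of other genes fell from 0.10 in the bin with the lowest content to -0.11 in the bin with the highest of 10 equal bins, and WT replicate 1 stood apart, deviating from -0.15 to 0.19 over the same bins. Spearman's rho between log2 fold change and GC content was -0.31 over the 76 members, which share libraries and many sequence stretches. With GC-content offsets, also chosen after seeing the data, the median was -0.17 and 66 of 76 were below 0. The part of transcript length in the shift of the family, beyond these offsets, was not tested.

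**Figure D5:**
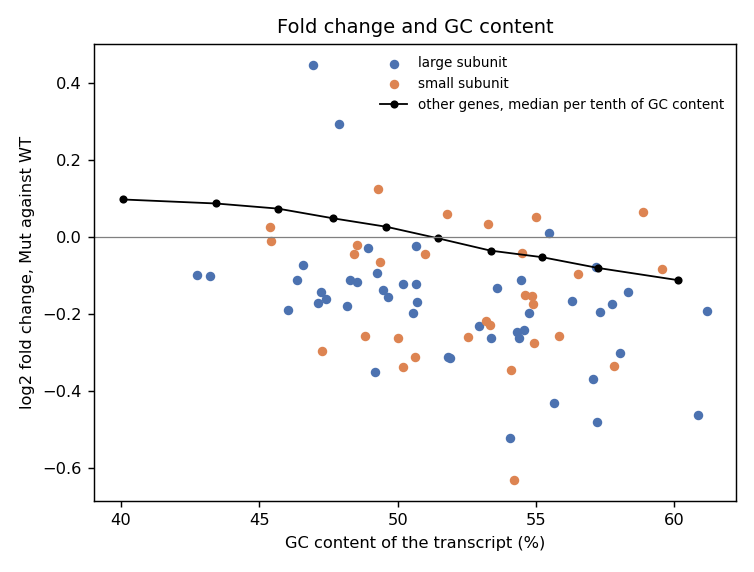
Log2 fold change of Mut against WT (vertical axis) against GC content of the transcript (%, horizontal axis) for the 76 genes, coloured by subunit; the black line joins the medians of the other tested genes in bins of GC content. The line falls from 0.10 to -0.11, and most members lie under it.

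Genes that build or regulate ribosomes were taken from lists, and in the edgeR quasi-likelihood fit 0 of their members passed an adjusted p of 0.05 in any list. For cytosolic ribosomal proteins outside the naming rule, the median log2 fold change of the 3 tested was -0.21 and all 3 were below 0. Rps3a1, a small subunit protein that the rule also leaves out and that was listed with the paralogues, had 646 and 737 RPKM in WT and 667 and 698 RPKM in Senp6-Mut (-0.06 ± 0.13), with overlap. Gnb2l1, a scaffold protein on the small subunit, had 899.98 and 899.21 RPKM in WT and 808 and 884 RPKM in Senp6-Mut (-0.13 ± 0.12). The 22 translation factors and other TOP mRNAs had a median of -0.02, with 13 below 0, beside the median of 0.01 over all genes. Eef1a1, the factor that brings aminoacyl-tRNA to the ribosome, had 4197, 4601, 4255 and 4599 RPKM (-0.03 ± 0.13), and Eef2, which moves the ribosome along, had 1388, 1148, 1138 and 1178 RPKM (-0.18 ± 0.16), in WT replicates 1 and 2 and Senp6-Mut replicates 1 and 2.

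RNA polymerase I and its factors, which transcribe ribosomal RNA, had a median of 0.00 over 20 genes, 10 of them above 0. Ribosome assembly factors had a median of 0.12, with 59 of 75 above 0 and 1 at an unadjusted p under 0.05. Both Senp6-Mut samples were above both WT samples in 13 of the 75, where the background over all genes was 25.4%. Their summed level was 4050 and 5361 CPM in WT and 5202 and 5206 CPM in Senp6-Mut, so WT replicate 1 alone was low. The gene under that p was Sbds, which readies the large subunit for translation, at 25.6 and 25.9 RPKM in WT and 32.1 and 35.0 RPKM in Senp6-Mut. Mitochondrial ribosomal proteins had a median of -0.07, with 57 of 76 below 0. Both Senp6-Mut samples were below both WT samples in 30 of these 76 (background 22.8%) and above in 4 (background 25.4%). The list on the 5S particle and p53 surveillance had a median of 0.06 over 18 genes and that on growth signalling to translation -0.02 over 24 genes. Within the last list Sesn1, a stress-induced inhibitor of mTOR, had 12.9 and 8.38 RPKM in WT and 6.62 and 6.65 RPKM in Senp6-Mut (-0.73 ± 0.23), and Pdcd4, an inhibitor of translation initiation, had 24.9 and 16.8 against 12.7 and 15.9 RPKM (-0.59 ± 0.23). In the same list Ddit4, another stress-induced inhibitor of mTOR, had 32.6 and 22.7 RPKM in WT and 35.997 and 43.8 RPKM in Senp6-Mut (0.48 ± 0.21), and Sesn2 had 16.6 and 16.1 against 18.03 and 20.8 RPKM (0.20 ± 0.14). These 4 genes were named after their values were seen. The 10 reference genes had a median of 0.14 and the 8 proliferation genes 0.09, so lists near or above 0 and lists below 0 stood side by side.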

How the data were processed

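Poly(A) RNA of 4 samples was fragmented, reverse transcribed with random hexamers and sequenced by a service. The authors deposited, per gene, the read count without normalization, the RPKM (the count scaled to the listed length and to the sample's counted reads) and the percent of gene length covered. A gene missing from a sample's file was given 0 reads. The submitters' processing notes name SAMtools and mm9. The aligner, counter and annotation are not given in the sources used here, and strand use is not stated.

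For the counts, edgeR 4.0.16 under R 4.3.3 was used (glmQLFit, robust, and glmQLFTest; TMM factors 0.966 to 1.03). A gene entered the fit with 10 reads or more in 2 or more samples, which left 14123 genes, and p-values were adjusted after Benjamini and Hochberg at 0.05. The SE of a fold change came from its F statistic. Alternatives were DESeq2 1.42.0, limma 3.58.1 on log2(RPKM + 1) and log2(RPKM + 0.1), other filters and scalings, a replicate block, and leaving out each sample. GC-content and gene length offsets were added after seeing the data. GC content, known for 96.3% of tested genes, and shared 50-base stretches came from the GENCODE transcript closest in length to the listed one, matched by Entrez identifier for 76 of 76 members. The fit was also run on simulated counts, with changes larger than those of the family and dispersions taken from the fit itself. Whether shifts as small as those of the family would be detected was not tested. The counts of replicates differed by far more than sampling noise (chi-square over degrees of freedom 49.7 in WT and 24.0 in Senp6-Mut), so each sample counted once.

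The members, lists and tests were chosen with earlier results of these data known. Named genes were the 5 lowest and 5 highest fold changes, the 5 highest and 3 lowest levels, members by role, and paralogue pairs. Library sizes after TMM were 20298850 to 31042437. Results for some genes are not reported here, and the plots by gene show 73 members.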

Additional observations from a re-analysis of the deposited data

How the results depend on the processing

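The calls and the median of the family were recomputed under 15 alternatives. The median log2 fold change was below 0 in each, and lay between -0.223 and -0.105 with 1 sample left out, with 59 to 68 of 76 genes below 0. It was -0.12 by library size, with 62 below 0, and -0.0683 with gene length offsets, which were chosen after seeing the data. The number of members called lower was 1 by DESeq2 and ranged from 0 to 11 with 1 sample left out. The number called higher ranged from 0 to 1. The 11 lower (10.6% of all genes were) and Rpl39 higher (9.42%) appeared without WT replicate 2, and Rpl30 higher, at 0.70, without WT replicate 1, where 3.72% of all genes were higher. The lone remaining sample is then assumed to vary like the other group. Over the pathway lists the number called was 3 by DESeq2, 1 with the replicate block, and 0 to 46 with 1 sample left out. The 46 were without WT replicate 2, where 10.6% of all genes were lower and 9.42% higher. DESeq2 called 1.89% of all genes lower and 3.11% higher. The lists held from 3 to 76 tested genes each. Whether they held more calls than the shares over all genes was not tested. The differences between replicates 1 and 2 in WT and in Senp6-Mut had a correlation of -0.0634 over 9307 genes. With 1 pair of samples per group this cannot tell whether the replicate numbers pair the samples. With the block 0 members were called, and over all genes 84 were higher and 33 lower. The share of reads differed by -0.633 to -0.236 percentage points with 1 sample left out. As a share of the RPKM sum the means were 14.6% in WT and 13.4% in Senp6-Mut, a difference of -1.25 points on a larger base. The ratio of Senp6-Mut to WT was 0.914 there and 0.907 for the share of reads. The sign of 15 named members turned under at least 1 alternative. By library size and by limma with a pseudocount of 1 and 0.1, Rps24 was at 0.0317, 0.0359 and 0.0359, and Rps4x at 0.0200, 0.0242 and 0.0243. With gene length offsets the values were 0.0846 for Rps24, 0.0736 for Rps4x, 0.0378 for Rpl36a, 0.0322 for Rps19, 0.0251 for Rps7, 0.00754 for Rpl11 and -0.0274 for Rps15a. With GC-content offsets they were 0.0122 for Rps19 and -0.0439 for Rps15a. With 1 sample left out, the lowest and highest values were -0.218 and 0.0204 for Rpl22, -0.0591 and 0.704 for Rpl30, -0.270 and 0.101 for Rpl36a, -0.406 and 0.00943 for Rplp1, -0.548 and 0.0966 for Rplp2, -0.0582 and 0.136 for Rps10, -0.0464 and 0.0968 for Rps15a, -0.207 and 0.00842 for Rps2, -0.103 and 0.0577 for Rps24, -0.0326 and 0.267 for Rps27a, -0.110 and 0.0419 for Rps4x and -0.0274 and 0.133 for Rps6. The cause was not tested. Rps27 ran from -1.05 to -0.124 with 1 sample left out.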
